A study of Drosophila melanogaster with 2 samples.

Results

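Candidate CG14441-eGFP peaks, some with high signal and some with low, were recorded at 5 genes of Drosophila melanogaster but are not in either thresholded peak list of the series. The genes are cbt, Lk6, larp, tara and Sirt6. The peaks were found in the ranked series list, which holds 122880 candidate peaks from both replicates. A peak was taken when its global irreproducible discovery rate (IDR, a measure of how poorly a peak's rank repeats between replicates) was 0.01 or below, written as a −log10 value of 2 or more, when its summit lay in one of the 5 genes or within 6 kb of it, and when neither thresholded list held it. Of the candidates, 4.26% passed the IDR threshold. The rule gave 23 peaks out of these 5235: 5 at cbt, 1 at Lk6, 2 at larp, 13 at tara and 2 at Sirt6. The 5 genes stand beside 13945 protein-coding genes on the 6 chromosome arms examined. The peaks were chosen by their IDR and, with their genes, for their signal in this list, so these values are given as a description, with no test.

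The series measured DNA binding by chromatin immunoprecipitation and sequencing (ChIP-seq) in whole embryos aged 0 to 24 h. All embryos came from the strain CG14441-GFP, which carries an insertion with CG14441 fused to eGFP, and chromatin was recovered with an antibody against GFP. The samples are 2 biological replicates of this single condition, and no other genotype, stage or treatment was profiled. The labels name neither the promoter that drives the fusion nor the tissues that make it, and whole embryos mix all cell types, so a peak does not say in which cells the DNA was bound. No read counts accompany the lists, and the depth behind each value is unknown.

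In ChIP-seq, DNA fragments held by a tagged protein are sequenced, and a peak marks where they pile up, with its summit at the highest point. A peak caller scores many candidates, and the IDR then keeps those whose ranks repeat between replicates. CG14441 is an uncharacterised gene. The 5 loci encode unlike proteins. Cabut (cbt) is a zinc finger transcription factor of the TIEG type, Lk6 is a kinase of the translation initiation factor eIF4E, larp encodes the La-related protein 1 homologue that binds mRNA, taranis (tara) encodes a SERTA-domain protein tied genetically to the Trithorax group and to Cyclin A, and Sirt6 belongs to the NAD-dependent sirtuin deacetylases.

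The sequence around the 7 summits below shows what lies under the peaks of highest signal. They comprise each of the 6 summits with a signal above 600 and the stronger Sirt6 summit, so that every gene is shown. Each line gives 121 bases of the + strand of the Release 6 (dm6) genome from RefSeq, 60 on each side of the summit. Capitals mark matches, on either strand, to the 10 short motifs and the 10 sequences of 7 bases named further on, and no capitals means no match in the bases shown.
cbt, strongest summit (chr2L:481041-481161): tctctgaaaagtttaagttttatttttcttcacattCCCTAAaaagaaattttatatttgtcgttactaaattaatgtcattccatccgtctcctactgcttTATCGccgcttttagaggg
Lk6 (chr3R:11760988-11761108): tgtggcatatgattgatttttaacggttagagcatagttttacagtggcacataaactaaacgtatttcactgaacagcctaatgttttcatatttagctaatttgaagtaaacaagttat
larp, stronger summit (chr3R:28326564-28326684): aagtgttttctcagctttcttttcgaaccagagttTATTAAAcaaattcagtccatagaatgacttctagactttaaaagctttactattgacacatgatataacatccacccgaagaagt
tara, upstream summit (chr3R:16224434-16224554): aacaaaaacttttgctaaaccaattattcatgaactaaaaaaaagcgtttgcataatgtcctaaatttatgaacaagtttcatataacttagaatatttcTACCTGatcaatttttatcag
tara, strongest intronic summit (chr3R:16236918-16237038): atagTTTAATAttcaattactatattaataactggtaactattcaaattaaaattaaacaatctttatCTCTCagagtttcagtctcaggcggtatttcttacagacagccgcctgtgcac
cbt, summit nearest its start (chr2L:480016-480136): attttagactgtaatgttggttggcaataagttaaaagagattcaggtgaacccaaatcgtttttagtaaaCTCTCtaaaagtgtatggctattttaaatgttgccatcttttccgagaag
Sirt6, summit between Sirt6 and pont (chr3R:10261909-10262029): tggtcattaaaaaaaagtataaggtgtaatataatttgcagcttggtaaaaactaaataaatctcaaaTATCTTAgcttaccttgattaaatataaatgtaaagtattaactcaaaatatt

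The strongest of the 23 peaks lay near cbt and had a signal of 2708, which is rank 3 of the 122880 candidates. Signal here is the score of the authors' peak caller, on a scale that is not stated. The ranked list also gives a signal for each replicate in 2 columns without names, called the first and second replicate column here. The summit at cbt (chr2L:480924-481260) read 1526 in the first and 1236 in the second replicate column, a mean of 1381 ± 205 (SD, n = 2). It lay 1413 bp upstream of the only annotated start of cbt, in an intron of u-shaped (ush), a FOG-type cofactor gene whose span contains cbt.

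A second summit upstream of cbt lay closer to the gene. At 388 bp from the cbt start (chr2L:479930-480212) the replicate columns read 358 and 307, a mean of 333 ± 36.1 (SD, n = 2), and the signal of both replicates together was 663. The summit 2261 bp upstream (chr2L:481883-482013), had a signal of 285, with 142 and 156 in the columns. These 3 summits formed 1 cluster inside ush, with neighbours 1025 and 848 bp apart and the strongest in the middle.

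The other 2 peaks counted for cbt lay on its far side and belonged by position to another gene. They lay near different annotated starts of CG4297, the neighbour beyond the 3′ end of cbt. The summit 260 bp upstream of the outer of these starts (chr2L:472389-472578) had a signal of 426 and columns of 215 and 218, and the summit 227 bp downstream of the other, in an intron of CG4297 (chr2L:471166-471489), had 175 with 88.1 and 91.8. The 6 kb window, not closeness to a cbt start, put them in this set. The largest gap in the set, 7616 bp, separated this pair from the 3 summits upstream of cbt.

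Lk6 carried a single peak past the IDR threshold, and no thresholded peak was in its window. The summit (chr3R:11760898-11761184) had a signal of 1714, rank 17 in the list. The first column read 927 and the second 800.5, a mean of 864 ± 89.7 (SD, n = 2). It stood alone: the nearest other peak past the threshold was 13204 bp away. It lay in an intron, 3409 bp inside the gene from its outer start and 969 bp upstream of its inner start. Of the 22 candidates in the Lk6 window, the next by IDR had a −log10 IDR of 0.722 and a signal of 14.3.

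At larp the stronger peak lay inside the gene, next to internal starts and not at the outer one. Its summit (chr3R:28326457-28326757) had a signal of 1209, rank 46, and columns of 687 and 526, a mean of 607 ± 114 (SD, n = 2). It lay 360 and 383 bp upstream of 2 inner starts out of the 6 annotated for larp. A weaker summit 751 bp away (chr3R:28327213-28327536) had a signal of 64.7, with 39.2 and 34.1 in the columns and a −log10 IDR of 2.30. Unlike at Lk6, 6 peaks in the larp window are in the thresholded lists, with signals of 6.22 to 216. The outer start of larp was thus represented, by a listed summit 145 bp upstream with a signal of 214, while the summit with the highest signal in the gene was not.

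Tara held 13 of the 23 peaks, spread over 30677 bp with gaps of 211 to 7352 bp and a median gap of 2030.5 bp. Of the 13, 2 had signals above 600. The other 11 were weaker, with signals of 6.18 to 165 that lay on both sides of 116, the median of all peaks past the threshold. All but the most upstream lay in introns. The summit 1157 bp upstream of the tara start (chr3R:16224374-16224638) had the highest signal, 806, with columns of 419 and 403 and a mean of 411 ± 11.4 (SD, n = 2). The second, 11327 bp inside the gene (chr3R:16236805-16237114), had 691, with columns of 381 and 302.5 and a mean of 342 ± 55.2 (SD, n = 2).

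The weaker tara peaks differed in how evenly they repeated. The summit 10651 bp inside the gene had a signal of 137 but columns of 80.9 and 43.2, which is the widest spread among the 23, an SD of 43.0% of the mean. The summit 6379 bp inside the gene had nearly equal columns, 88.6 and 89.9, which is the narrowest at 0.983%. A single weak peak sat at the inner tara start: 57 bp upstream of it (chr3R:16242597-16242920) the signal was 85.4, with 43.7 and 41.9 in the columns. The peak 16055 bp inside the gene, upstream of the same start, had a signal of 89.2 and columns of 53.8 and 39.4. Nearer the outer start, the peak 3332 bp inside the gene had 97.4, with 39.9 and 50.8.

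The 4 most distal tara peaks lay downstream of the inner start. At 24460 bp inside the gene the signal was 114.95 with columns of 60.1 and 55.8, and at 25012 bp it was 135 with 54.0 and 79.4. At 28099 bp it was 154 with 73.2 and 83.6, and at 29520 bp it was 106 with 39.2 and 64.0. The second column was the higher in 3 of these 4, unlike in most of the 23.

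A pair of tara summits 211 bp apart cannot be counted as separate binding. Their peaks overlap, their columns are identical at 37.0 and 30.4, and both correspond to the same peak in each replicate's own list, so the 23 peaks rest on 22 distinct pairs of replicate peaks. Their signals nevertheless differ, at 68.0 and 6.18, and the lower one has rank 113627. The larp window holds a listed pair with the same property, whose signals were 110 and 6.22 and whose columns were identical at 54.3 and 54.0.

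Both Sirt6 peaks lay between genes, just upstream of starts. The stronger summit (chr3R:10261857-10262139) had a signal of 510, columns of 280 and 235 and a mean of 258 ± 32.0 (SD, n = 2). It lay 120 bp upstream of Sirt6 and 154 bp upstream of pontin (pont), which is transcribed the other way and encodes an AAA+ ATPase of chromatin complexes. The second summit (chr3R:10264090-10264252) had a signal of 313, columns of 171 and 135 and a mean of 153 ± 25.5 (SD, n = 2). It was nearer to another gene: it lay 129 bp upstream of Nuak, which encodes a kinase related to AMPK, and 2328 bp from Sirt6.

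Ordered by the strongest peak of each gene, the loci ran cbt, Lk6, larp, tara and Sirt6. The replicate values of neighbours in this order did not overlap, but with 2 replicates and unknown depth the order is only described. Across the 23 peaks the SD between the columns was a median of 12.4% of the mean. The first column was the higher in 15 of 23, against 61.4% of all 5235 peaks past the threshold, and the ratio of the columns had a median of 1.15 among the 23 and 1.08 overall. The median signal of the 23 was 165, beside 116 for all peaks past the threshold, a difference to which the choice of strong loci contributes by construction.

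**Figure D1:**
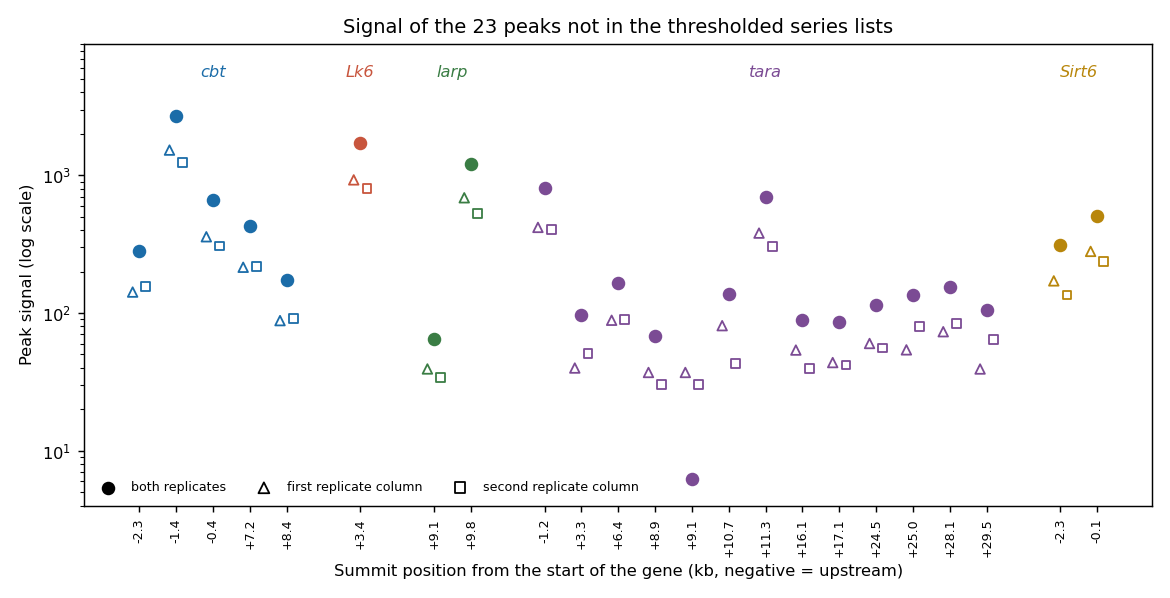
Signal (log scale, scale of the authors' peak caller not stated) of the 23 peaks by gene, with the summit's distance in kb from the start of the gene on the horizontal axis. Filled circles are the signal of both replicates, triangles and squares the first and second replicate columns. The cbt, Lk6 and larp peaks of 2708, 1714 and 1209 stand highest, and the tara peak of 6.18 lies below its own column values of 37.0 and 30.4.

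Of the 5235 peaks past the IDR threshold, 5116 are in the thresholded lists and 119 (2.27%) are in neither. The 5116 are the whole of the stricter thresholded list, and the larger holds 5823. The 23 peaks are part of the 119, and the remaining 96 lie at other loci. None of the 119 overlapped any thresholded peak by even 1 bp. By chromosome arm the 119 fell unevenly: 82 of 1269 on 3R (6.46%), 26 of 949 on 2L (2.74%), 6 of 922 on 2R, 5 of 1090 on 3L, 0 of 1002 on X and 0 of 2 on chromosome 4. All 5 loci lie on 3R or 2L. Among the 50 strongest candidates, 3 were not listed, and these are the top peaks of cbt, Lk6 and larp.

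The 23 peaks were grouped into runs, and the other unlisted peaks were not examined in this way. The 23 made 6 runs with no listed peak inside: 1 at each of cbt, Lk6, larp and Sirt6, and 2 at tara. The Lk6 run was 1 peak, and the larp and Sirt6 runs held 2 each. The longest held 9 tara peaks over 18547 bp. The cbt run held 5 peaks over 10848 bp, and the other tara run held 4 over 5384 bp. For 19 of the 23 the nearest peak past the threshold was also unlisted. The same share for other peaks is not given, so this count only describes these loci. The distance to the nearest neighbour, listed or not, had a median of 1025 bp for the 23. It was 3558 bp for all peaks past the threshold. This spacing is set in part by the choice of loci with several peaks.

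The distance from a run to the nearest listed peak differed between loci. At cbt a listed summit with a signal of 208 lay 573 bp from an unlisted one of 175. At tara, a listed summit of 1655 (columns of 919 and 722) lay 1997 bp upstream of the unlisted one of 806. At Sirt6 a listed summit of 95.8, below the unlisted 313, lay 1455 bp away. On their other sides the gaps were 3915 bp at cbt, 337594 bp at larp and 48352 bp at Sirt6, and the larp gap on the near side was 1576 bp. At Lk6 the gaps were 82804 and 13204 bp, and the listed peak between the tara runs lay 5043 and 2309 bp from them. At cbt, larp and tara, at least 1 listed signal lay between the lowest and the highest unlisted signal. At Sirt6 signal separated them: both unlisted peaks (510 and 313) were above all 3 listed ones (95.8, 75.4 and 73.3). The unlisted share of peaks past the threshold was 5 of 6 at cbt, 1 of 1 at Lk6, 2 of 8 at larp, 13 of 17 at tara and 2 of 5 at Sirt6.

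**Figure D2:**
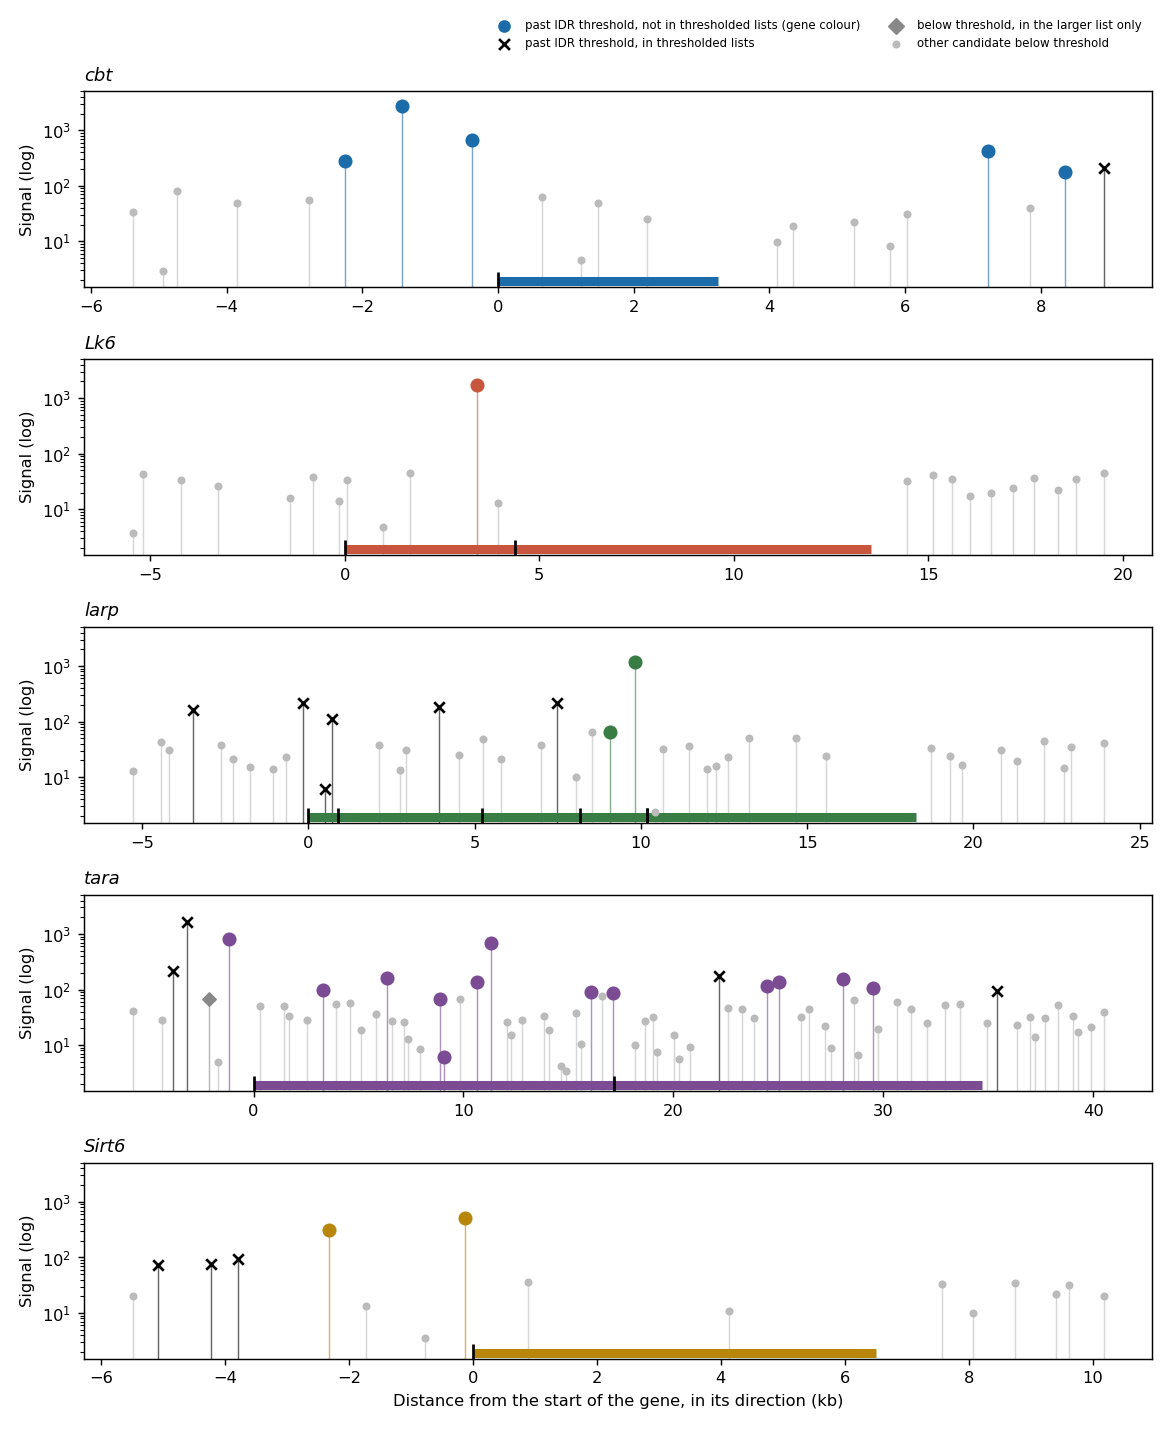
Candidate peaks of the ranked list in the window of each gene, with distance from the start of the gene in its direction of transcription (kb) and signal on a log scale. Coloured circles are the 23 unlisted peaks, crosses are peaks in the thresholded lists, the diamond is a peak in the larger list alone, grey dots are candidates below the IDR threshold, and bars and ticks show the gene and its annotated starts. At Lk6 the only peak past the threshold, 1714, is unlisted, and at tara the listed peak of 1655 stands next to the unlisted 806.

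The peaks nearest the IDR limit were at tara. The lowest −log10 IDR among the 23 was 2.02, shared by the overlapping tara pair with signals of 68.0 and 6.18. The highest just below the limit in these windows was 1.94, for a signal of 68.9 at 2142 bp upstream of the gene, and that peak is in the larger thresholded list. At larp the values were 2.30 inside (signal 64.7) and 1.75 outside (signal 64.4). The highest −log10 IDR that the list gives is 5, and 10 of the 23 peaks had it. IDR was part of their choice, and the share among all peaks past the threshold is not given here. The 6 kb limit cut through no run: the farthest peak, at cbt, lay 5118 bp from the gene, and beyond 6 kb the next unlisted peak was 89012 bp from Sirt6 or farther from the others.

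Each replicate also has its own ranked list, which the series list draws on, so a match there is not independent. All 23 peaks overlapped a ranked peak of replicate 1 and of replicate 2, as did 99.5% and 99.8% of all peaks past the threshold. The top cbt peak had rank 3 in both replicate lists. Lk6 had ranks 21 and 16, larp 37 and 53, the upstream tara peak 122 and 88, and Sirt6 263 and 255. The ranks of the strong peaks were thus close in both replicates, to which the choice by IDR and signal contributes by construction. Summits of the strongest overlapping peaks were displaced by a median of 6 bp in replicate 1 and 24 bp in replicate 2, with the largest shifts 215 and 267 bp.

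Not all of the 23 passed the same IDR limit in the lists of single replicates. A list of 1 replicate cannot compare 2 replicates, so its IDR is another measure than the series value. What it compares was not examined here. The matched peak had a −log10 IDR of 2 or more in the list of replicate 1 for 16 of 23 (67.5% of all peaks past the threshold in the series list) and in that of replicate 2 for 18 of 23 (66.9%), and 5 passed in neither. The 7 that failed in at least 1 list were the weaker larp peak and 6 at tara. The 5 and the 7 each include both peaks of the overlapping tara pair, which share 1 match in each list. For example, the weaker larp peak had −log10 IDR values of 0.574 and 0.438. Not 1 of the 23 overlapped a thresholded peak of replicate 1 (66.1% of all peaks past the threshold did) or of replicate 2 (65.3%). Of all 119 unlisted peaks, 0 overlapped a thresholded peak of either replicate. Thus 16 peaks had a match that passed in both replicates' ranked lists and were in neither replicate's thresholded list. For 1 of the 16, the tara peak with a signal of 137, the match in replicate 2 was another peak than the one behind its column value. That match had a signal of 54.1 and a −log10 IDR of 2.59, while the second column read 43.2. Of the peaks past the threshold in the replicate lists, 105 of 3887 in replicate 1 and 109 of 4049 in replicate 2 were also not in that replicate's thresholded list.

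**Figure D3:**
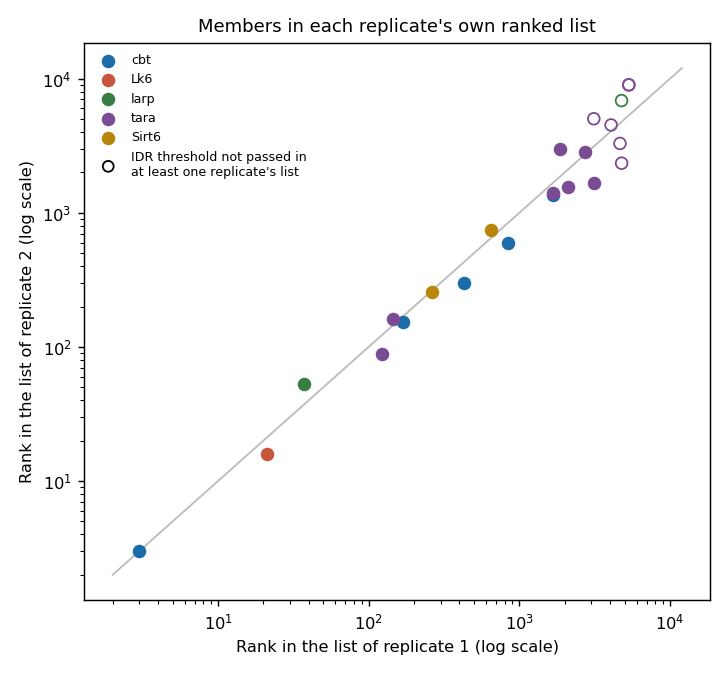
Rank of the matched peak in the list of replicate 1 (horizontal) and of replicate 2 (vertical), both log scales, for the 23 peaks, with the line of equal rank. Open circles did not pass the IDR threshold in at least 1 replicate. The top cbt, Lk6 and larp peaks lie near the line at ranks of 3 to 53, and the open circles are tara peaks and the weaker larp peak, the pair that shares a replicate peak drawn at the same place.

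The submitters' provenance records bear on how the lists were made. Each of the 4 thresholded lists names 1 source file more than its ranked list, and it is the same file for all 4. What that file holds was not analysed here, and its part in leaving out these peaks was not tested. All 8 lists had the checksum recorded for them.

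By summit, 19 of the 23 peaks lay in introns, where 49.7% of all peaks past the threshold lay, and 12 of these 19 were in tara introns. Of the others, 4 lay between genes and 0 in an exon (13.9% of all). A protein-coding transcription start was within 500 bp of 7 of the 23 summits, against 41.8% of all. With 250 bp the count was 4 (33.3% of all), with 1000 bp 9 (51.7%), and with starts of any gene type 7 (44.7%). Those starts belonged to cbt, CG4297 (for 2 summits), larp, tara, Sirt6 with pont, and Nuak. At the 3 highest peaks, the summits lay 1413, 969 and 360 bp upstream of the nearest start of cbt, Lk6 and larp. Peak widths were 83 to 337 bp, with 12 of 23 at 324 bp, and widths of all peaks are not given here.

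The summits were poor in G and C compared with their surroundings, as were listed peaks. Mean GC within 50 bp of the summit was 37.4% for the 23 and 45.2% at 400 to 500 bp from it. The listed peaks had 36.1% and 42.9%. Among the 23, the core was the lower in 16, and single cores ran from 20.8% to 63.4%. The matching count for listed peaks is not given.

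No short motif was shared by many of the 23. There were 10 motifs, searched on both strands within 100 bp of the summit. GAGAG was near 4 summits, against 22.4% of all peaks past the threshold. CGATA was near 3 (27.1%), while TATCGATA, which contains it, was near 0 (2.96%). CAGCTG was near 2 (9.23%), and TTAGGG was near 2 (5.01%). CAGGTA was near 1 (4.28%), and CACACACA was also near 1 (4.22%). GGTCACAC was near 0 (1.95%), as was ATTTGCAT (2.96%), and the same held for AATTAATT (3.06%). At least 1 motif was near 10 of 23, beside 58.9% of all. The top cbt summit carried TTAGGG and CGATA, as the capitals in its sequence show, while the GAGAG of Lk6 lies beyond the bases printed.

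The 10 sequences of 7 bases that best set listed summits apart from their flanks were also looked up, within 50 bp and on both strands. TATTAAA was at 4 summits, against 9.46% of listed peaks. ATAACTA was at 2 (3.01%), and TAAGATA was at 1 (3.01%). Each of the other 7 was at 0: CTATCGA (2.54% of listed peaks), its shifted form ACTATCG (2.25%), then CACAGTG (3.11%), followed by AGGGTAT (2.01%), with TCTTAAA (4.34%), next AAGCTAT (2.39%), and last ATATTAG (2.60%). At least 1 of the 10 was at 6 of 23, beside 28.7% of listed peaks. The match to TATTAAA in the sequence of the strongest intronic tara summit lies just outside this distance. The stronger larp summit held TATTAAA and the stronger Sirt6 summit TAAGATA. Neither the top cbt peak nor the Lk6 peak held any of them.

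Relatives of the 5 genes were examined in the stricter thresholded list, by summits in the gene or within 6 kb, which 53.5% of protein-coding genes had. All 5 partners listed for tara had one: the Brahma complex genes osa (highest signal 1233) and brm (1152), Cdk1 (380), trx (161) and CycA (123). Of 11 other genes of eIF4E and its regulators, 5 had one, led by the kinase p38a (616) and the cap-binding repressor eIF4EHP (255), with the eIF4E-binding protein Thor at 161. Of the Krüppel-like and Sp zinc finger genes other than cbt, 2 of 5 did, luna (282) and dar1 (262). Other La-motif genes had one in 2 of 3, Larp4B (285) and Larp7 (110), and other sirtuin genes in 2 of 4, Sirt1 (177) and Sirt2 (85.1). By the thresholded list alone, cbt, larp, tara and Sirt6 would count among genes with a summit, at highest signals of 208, 216, 1655 and 95.8, and Lk6 would not. For cbt and Sirt6 this rests on the 6 kb window. The summit of 208 lay 800 bp downstream of a CG4297 start, and that of 95.8 lay 1326 bp downstream of a Nuak start. The weaker listed summits in the Sirt6 window were also nearest to a Nuak start.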

How the data were processed

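The lists derive from alignments of 2 biological replicates and a control alignment on dm6, per the submitters' provenance records. Chromatin was sonicated to 200 to 800 bp, per the labels. No source used here names the aligner or peak caller, and the control was not analysed here. The deposited signal is the authors' peak caller's score. The deposited IDR is a −log10 value of the global IDR. The replicate columns of the series list carry no names, and 6 further unnamed columns in the other ranked lists were not used. Each column comes with the coordinates of a replicate peak. Values of the first equalled those of the replicate 1 peak with exactly these coordinates for 5212 of 5235 peaks. Values of the second equalled those of replicate 2 in the same way for 5228.

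The 5 genes, their related genes, the motifs and the comparisons were chosen with earlier results of these data known. Named were the 5 genes with every peak, the nearest listed peaks, genes with a start within 500 bp, and the peaks beside each limit. Overlap meant at least 1 bp, and the strongest overlapping peak was the match. Sequences of 7 bases were the 10 most over-represented within 50 bp of listed summits against 400 to 450 bp away. Starts came from Ensembl release 115 (BDGP 6.54). Position and motif helpers were tested on simulated data. With 1 group there was no test. Scripts ran in Python 3.11.15 with pandas 2.3.3, numpy 2.4.6 and matplotlib 3.10.9. Alternatives covered the overlap rule, window, IDR limit, other ranked list, single replicates and start distance.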

Additional observations from a re-analysis of the deposited data

How the results depend on the processing

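The count of 23 peaks was within 1.5 times of its value under each alternative run. It was 23 by overlap, by summit position or with a window of 10 kb. These settings could not change it, as no unlisted peak overlaps a listed one and the next unlisted peak was 89012 bp away or farther. It was 19 with a window of 2 kb and 16 with a −log10 IDR of at least 3. In the other ranked series list it was 22, of which 20 are among the 23 and 2 are other tara peaks. From 1 replicate's own lists it was 18 without replicate 2 and 23 without replicate 1. The latter are not the same 23 peaks: cbt had 8 instead of 5, and tara 10 instead of 13. Counts per gene stayed within 1.5 times in 33 of 40 cases, among them the settings that could not change a count. In the other cases cbt had 2 at 2 kb and 8 without replicate 1, and larp had 1 at the stricter IDR, in the other list and without replicate 2. Tara had 7 at the stricter IDR, and Sirt6 had 1 at 2 kb. Lk6 had 1 under each. The count within 500 bp of a start, 7, was 4 at 250 bp (33.3% of all), 9 at 1000 bp (51.7%) and 7 with genes of any type (44.7%). Matches in replicate 1 were 20 with 50% overlap and 22 with summits within 100 bp, and in replicate 2 they were 21 and 22. Motifs were near 9 peaks at 50 bp, beside 10. No paired analysis was possible because only a single condition was profiled. Without depth or control signal, counting error of a peak and local background could not be assessed.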

Other observations

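In the other ranked series list all 23 peaks recur with the same signal, but 3 of them fall below the threshold there: the weaker larp peak at a −log10 IDR of 0.575 and the overlapping tara pair at 1.83. In that list 2 other tara peaks not in the thresholded lists pass, with signals of 56.2 and 68.6 and −log10 IDR values of 2.05 and 2.42. Within the bounds of the 6 runs, the thresholded lists of the series and of both replicates hold 0 peaks, while the ranked series list holds 15, 1, 2, 32, 11 and 4 candidates in the runs of cbt, Lk6, larp, the longer tara run, the shorter tara run and Sirt6.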
